A study of Mus musculus with 8 samples.

Results

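The metabotropic glutamate receptors are a family of glutamate receptors that signal through G proteins rather than through an ion pore. Members were taken by gene symbol from the 55188 genes of each deposited table, which gave 6 genes: Grm5 of receptor group I, Grm2 and Grm3 of group II, and Grm4, Grm7 and Grm8 of group III. All 6 had a valid value in each of the 8 libraries, and all 6 passed the minimum of 0.5 FPKM in 2 animals used for testing. FPKM are fragments scaled by transcript length and by library total, so levels of different genes can be set side by side on this scale.

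Hippocampal RNA of C57BL/6 mice was sequenced before any fear conditioning. Group WT was labelled wild type and comprised 2 numbered animals, and group KO was labelled as the Pyk2 knockout and comprised 2 numbered animals, each animal with 2 technical replicate libraries. The labels call every animal transgenic, WT included, and give no age, no sex and no account of how the knockout was made. Whether each number is its own mouse is not stated, so p-values measure only the spread between numbered units. The study addressed hippocampal transcripts in the absence of Pyk2, a tyrosine kinase that calcium activates and Ptk2b encodes.

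Group I receptors couple to Gq and phospholipase C, sit mainly on the postsynaptic side, and release calcium from internal stores, a signal to which Pyk2 responds. Group II and group III receptors couple to Gi and Go, lower cyclic AMP, and act largely on axon terminals, where they restrain glutamate release. In the hippocampus they take part in long-term depression, in control of mossy fibre transmission and in signalling between neurons and astrocytes.

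Several facts of the whole series bear on every value below. Ptk2b was not lower in the KO-labelled animals (217 ± 21 FPKM in WT against 273 ± 6.33 FPKM in the KO-labelled animals, SD, n = 2 each; limma adjusted p = 0.158), so directions are given for the groups as labelled. A value summed over the gene cannot show the loss of an exon or of the protein. Markers of choroid plexus, the secretory tissue that adjoins the hippocampus, were lower in the KO-labelled animals for 18 of 18 listed genes, none at 0 in every library. Their summed level was 4411 to 7754 FPKM in the WT animals and 314 to 1292 FPKM in the KO-labelled animals, which was 0.873% to 1.54% and 0.0626% to 0.260% of all FPKM. The defining marker Ttr was at 3366 and 6325 FPKM in WT1 and WT2, against 180.0 and 934 FPKM in KO1 and KO2. Defining hippocampal markers were present in all animals, with Prox1 of dentate granule cells at 15.2 ± 1.00 FPKM in WT against 16.7 ± 1.08 FPKM in the KO-labelled animals, and Wfs1 of CA1 at 42.3 ± 8.04 and 52.6 ± 17.0 FPKM (SD, n = 2 each). In bulk tissue, fewer cells of a type and less RNA per cell cannot be told apart.

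The 6 receptors spanned a 19.3-fold range of level and formed 3 tiers. Grm5 was highest at 45.1 ± 0.609 FPKM (SD over the 4 animals of both groups). It was followed by Grm2 at 16.6 ± 2.62, Grm7 at 13.9 ± 1.01 and Grm3 at 11.7 ± 0.558 FPKM. Grm4 and Grm8 were lowest at 3.14 ± 0.407 and 2.34 ± 0.314 FPKM. The order of means was kept within each of the 4 animals and each of the 8 libraries. The steps from Grm5 to Grm2 and from Grm3 to Grm4 were 2.72-fold and 3.73-fold, with no overlap between the ranges over libraries. The ranges over animals of Grm2 (13.9 to 19.9 FPKM) and Grm7 (12.7 to 15.0 FPKM) overlapped, so the order of this pair held within an animal but not across animals. For Grm7 over Grm3 and Grm4 over Grm8 the ranges over animals were separate while those over libraries overlapped. Among all genes tested, Grm5 lay above 89.9% in level and Grm8 above 27.2%.

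**Figure D1:**
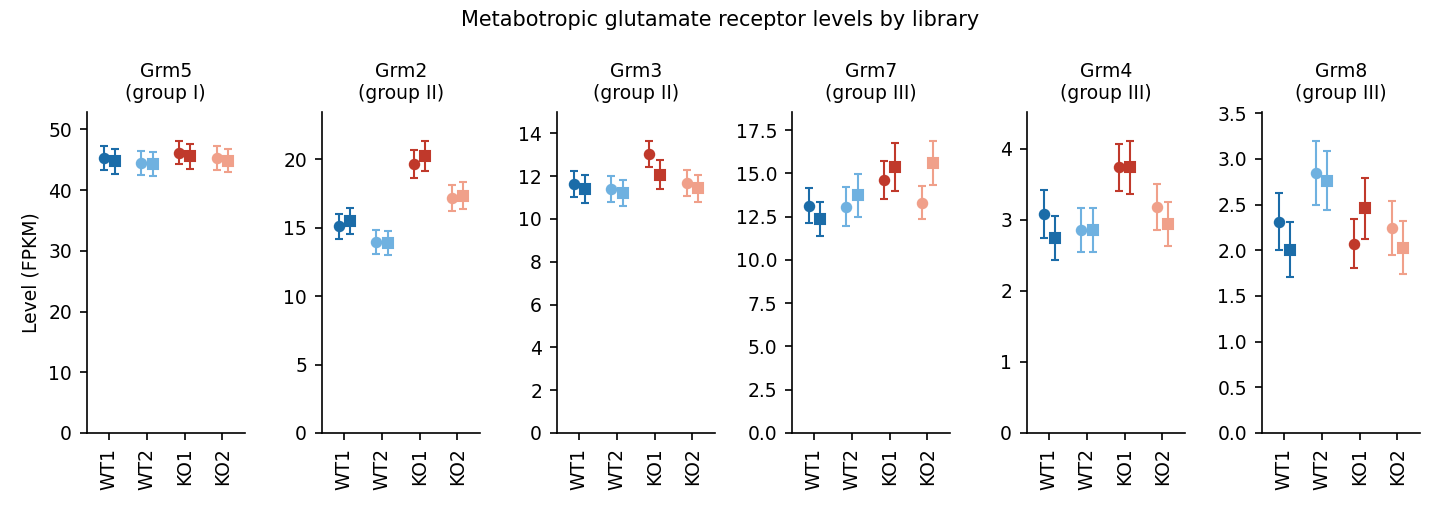
Level of each receptor gene (y axis, FPKM, from 0, a separate scale per panel) in the technical replicate libraries (circle, first; square, second) of the 2 WT animals and the 2 KO-labelled animals, with bars for the deposited confidence limits. Grm5 is nearly level across all libraries, Grm2 is higher in all 4 libraries labelled KO, and the highest Grm8 values are those of WT2.

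Grm5 encodes mGluR5, a group I receptor abundant in the forebrain, which binds Homer scaffolds and triggers protein-synthesis-dependent long-term depression. It lies on the plus strand (ENSMUSG00000049583, chromosome 7, 87584168 to 88134907, mm10), with 10 exons in its longest coding transcript, and exons of any transcript cover 1.86% of the gene. The technical replicates gave 45.3 and 44.7 FPKM in WT1, 44.5 and 44.3 in WT2, 46.2 and 45.6 in KO1, and 45.4 and 44.9 in KO2. Both KO-labelled animals lay above both WT animals, but by a margin of only 45.1 against 45.0 FPKM, and single libraries of the groups overlapped. The means were 44.7 ± 0.432 FPKM in WT against 45.5 ± 0.542 FPKM in the KO-labelled animals (SD, n = 2 each). The difference was 0.02 as log2(FPKM + 1) (standard error, SE, 0.04, 95% interval -0.07 to 0.12), and it did not pass in limma (adjusted p = 0.793). The interval leaves room for a Grm5 level up to 0.12 higher or 0.07 lower on this scale. Grm5 varied least of the 6 receptors over the 4 animals, with a coefficient of variation of 1.35%. Of 2819 genes within 2-fold of its level, 127 (4.51%) varied less.

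Grm2 and Grm3, the group II receptors, differed in how far the groups stood apart. Grm2 encodes mGluR2, an autoreceptor on glutamatergic axons that is prominent on the mossy fibres of dentate granule cells. The gene lies on the minus strand of chromosome 9 (ENSMUSG00000023192, 106643095 to 106656082) and is compact, with a span of 13 kb of which exons cover 37.7%. Its technical replicates gave 15.1 and 15.5 FPKM in WT1, 13.9 and 13.9 in WT2, 19.6 and 20.2 in KO1, and 17.1 and 17.3 in KO2. All 4 libraries labelled KO lay above all 4 WT libraries, an order found for 7.11% of the genes with a value in every library. The means were 14.6 ± 0.975 FPKM in WT against 18.6 ± 1.92 FPKM in the KO-labelled animals, 27.3% higher (SD, n = 2 each). The log2 difference was 0.33 (SE 0.09, 95% interval 0.10 to 0.55), which did not pass over all genes (limma, unadjusted p = 0.0131, adjusted p = 0.210). Technical replicates of Grm2 differed by at most 0.04 on the log2 scale, whereas animals of 1 group differed by 0.13 in WT and 0.20 in KO. Of 5338 genes within 2-fold of its level, 22 (0.412%) had a larger positive difference. Regardless of sign, the difference of Grm2 was larger than that of 93.1% of all genes tested. Grm2 also varied more over the 4 animals than 95.4% of the genes within 2-fold of its level, the group difference included.

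Grm3 encodes mGluR3, the group II receptor that astrocytes also express and that the neuropeptide NAAG activates. It spans 240 kb on the minus strand of chromosome 5 (ENSMUSG00000003974, 9485541 to 9725170), of which exons cover 1.27%. Its libraries stood at 11.6 and 11.4 FPKM in WT1, 11.4 and 11.2 in WT2, 13.04 and 12.1 in KO1, and 11.7 and 11.4 in KO2. KO1 was the high animal, while KO2 overlapped WT1 library by library and exceeded it by 11.54 against 11.52 FPKM as a mean. Group means were 11.4 ± 0.154 and 12.05 ± 0.712 FPKM (WT first, SD, n = 2 each), a log2 difference of 0.07 (SE 0.06, 95% interval -0.08 to 0.22, limma adjusted p = 0.611). The difference was 0.02 without KO1 and 0.13 without KO2, so its size rested on KO1. The Grm2 to Grm3 ratio of FPKM was 1.33 and 1.23 in the WT animals and 1.59 and 1.49 in the KO-labelled animals. Both ratios in KO were higher. An exact two-sided permutation test gave p = 0.333, the lowest p that 4 animals in 2 equal groups can reach. Of the other pairs compared, Grm7 to Grm8, Grm4 to Grm8 and Grm2 to Grm5 had the same order and p. The ratio of Grm7 to Grm4 did not.

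The stretch before the transcript start is shown for Grm2 and Grm3, as paralogs of 1 receptor group whose ratio is given above. It is also shown for Grm7, whose difference came next after that of Grm2 in unadjusted p. The RefSeq promoter table (GRCm38.p6, the assembly of mm10) held 4 of the 6 members and did not hold Grm4 and Grm5. Each sequence below is the 250 bases before the start, 5′ to 3′ on the strand of the gene. Capitals mark GGGCGG, the GC box bound by Sp1 family factors, and TTCAGCACC, the left part of the element bound by the neuronal gene repressor REST.
Grm2: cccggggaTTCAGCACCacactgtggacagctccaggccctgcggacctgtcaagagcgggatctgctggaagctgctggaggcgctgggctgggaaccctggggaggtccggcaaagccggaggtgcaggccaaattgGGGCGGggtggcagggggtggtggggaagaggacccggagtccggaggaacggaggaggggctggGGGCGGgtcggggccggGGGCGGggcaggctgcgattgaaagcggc
Grm3: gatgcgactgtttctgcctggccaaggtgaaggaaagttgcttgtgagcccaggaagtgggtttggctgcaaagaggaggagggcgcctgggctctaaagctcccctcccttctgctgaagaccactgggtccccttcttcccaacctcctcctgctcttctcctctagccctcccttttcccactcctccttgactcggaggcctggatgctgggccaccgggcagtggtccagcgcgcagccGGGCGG
Grm7: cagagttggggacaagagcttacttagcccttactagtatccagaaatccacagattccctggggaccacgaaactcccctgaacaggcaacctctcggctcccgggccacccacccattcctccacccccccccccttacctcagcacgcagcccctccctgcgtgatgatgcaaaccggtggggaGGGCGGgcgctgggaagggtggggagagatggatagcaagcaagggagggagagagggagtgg
The windows are chr9:106656110-106656359 (minus strand), chr5:9725353-9725602 (minus strand) and chr6:110645262-110645511 (plus strand). They lie before the deposited gene spans by 27, 182 and 69 bases, and the Grm7 window also lies within the antisense gene Gm20387. Grm2 held 3 matches to GGGCGG, Grm3 and Grm7 held 1 each, and 32.7% of 32817 promoter windows of this length held at least 1 on either strand. TTCAGCACC was found in the Grm2 window and in 0.302% of all windows. The other motifs searched on both strands were TATAAA (12.4% of windows), TGACGTCA (1.55%) and GCGTGGGCG (0.536%), and none of them was in these windows. No 2 matches overlapped. GC content was 71.2% for Grm2, 62.4% for Grm3 and 62.0% for Grm7, against a median of 52.4% over all windows. These matches are letters in a window and were not tied to any change in level.

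Group III held the widest mix of patterns. Grm7 encodes mGluR7, a receptor of low glutamate affinity at the active zone, which the scaffold PICK1 binds. It is the longest of the 6 genes at 922 kb on the plus strand of chromosome 6 (ENSMUSG00000056755, 110645581 to 111567230), and exons cover 0.639% of it. Its libraries gave 13.1 and 12.4 FPKM in WT1, 13.1 and 13.7 in WT2, 14.6 and 15.3 in KO1, and 13.3 and 15.6 in KO2. Both KO-labelled animals lay above both WT animals, but the first library of KO2 lay below the second of WT2. The means were 13.1 ± 0.464 and 14.7 ± 0.375 FPKM (WT first, SD, n = 2 each), 12.6% higher, with a log2 difference of 0.16 (SE 0.05, 95% interval 0.03 to 0.29). It did not pass over all genes (limma, unadjusted p = 0.0280, adjusted p = 0.265). Technical replicates of Grm7 differed by up to 0.21 on the log2 scale, more than the groups did. The difference was 0.08 from the first technical replicates alone and 0.23 from the second alone.

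Grm4 encodes mGluR4, a presynaptic receptor best known from cerebellar granule cell axons. It lies on the minus strand of chromosome 17 (ENSMUSG00000063239, 27422387 to 27521403). Its libraries gave 3.08 and 2.74 FPKM in WT1, 2.85 and 2.86 in WT2, 3.74 and 3.74 in KO1, and 3.18 and 2.94 in KO2. KO1 stood apart from the other 3 animals, and KO2 overlapped WT1 library by library. Means were 2.88 ± 0.0430 and 3.4 ± 0.479 FPKM (WT first, SD, n = 2 each), a log2 difference of 0.18 (SE 0.10, 95% interval -0.07 to 0.43, limma adjusted p = 0.447). Without KO1 it was 0.06 and without KO2 it was 0.29.

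Grm8 encodes mGluR8, a presynaptic receptor of high glutamate affinity, and was the lowest of the 6 genes. It lies on the minus strand of chromosome 6 (ENSMUSG00000024211, 27275119 to 28135178). Its libraries gave 2.31 and 2.01 FPKM in WT1, 2.85 and 2.76 in WT2, 2.07 and 2.46 in KO1, and 2.24 and 2.03 in KO2. WT2 was high, and WT1 lay between the 2 KO-labelled animals, so the groups overlapped. It was the member with a lower mean in the KO-labelled animals, at 2.48 ± 0.455 and 2.20 ± 0.0924 FPKM (WT first, SD, n = 2 each). The log2 difference was -0.12 (SE 0.11, 95% interval -0.40 to 0.17, limma adjusted p = 0.664). Without WT2 it changed sign to 0.02.

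The values of the lower genes rest on fewer fragments. The deposited confidence limits lay within 4.20% to 4.60% of the value for Grm5 and within 11.8% to 15.2% for Grm8. The remaining receptors lay between, from 4.67% at the narrowest for Grm3 to 11.3% at the widest for Grm4. Each member's span overlaps at least 1 other annotated gene, 15 in all, and no strand setting is given in the sources used here. The highest level of any of these in a library was 1.2 FPKM, for Gm20387 at the start of Grm7.

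Counted over the members, limma called 0 of 6 at an adjusted p under 0.05, where it called 9 of 16667 genes (0.054%), all lower in the KO-labelled animals. That count was 0 without WT1, 1 without WT2, 11 without KO1 and 224 without KO2. At an unadjusted p under 0.05 there were 2 members, Grm2 and Grm7, both higher in the KO-labelled animals, as were 4.11% of all genes. Higher genes made up 26.4% of all genes at that unadjusted level, and 45.8% after median-of-ratios scaling. Both KO-labelled animals lay above both WT animals for 5 of 6 members, against 18.4% of all genes tested. After median-of-ratios scaling the same order held for 5 of 6 members and 27.2% of genes. The median log2 difference was 0.12 over the members and -0.02 over all genes tested. KO1 exceeded KO2 in all 6 members, an order found for 42.0% of all genes tested. Choroid plexus markers were lowest in the same animal, KO1, and their part in these differences was not tested.

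**Figure D2:**
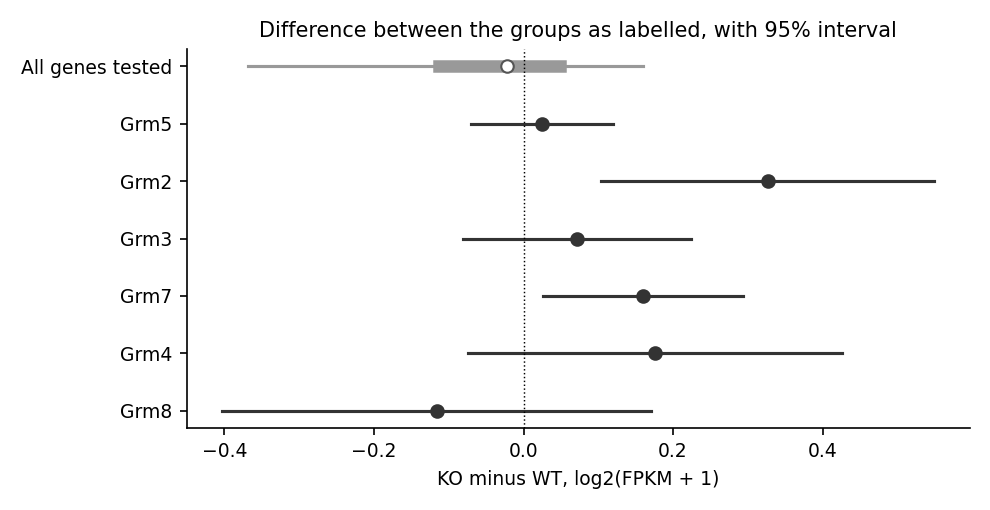
Difference between the KO-labelled animals and the WT animals on the log2(FPKM + 1) scale (x axis) for each receptor gene (point, limma estimate; line, 95% interval). The grey row shows all 16667 genes tested (circle, median; thick bar, 25th to 75th percentile; thin line, 5th to 95th percentile). The estimates of Grm2 (0.33) and Grm4 (0.18) lie beyond the thin line, which ends at 0.16, and that of Grm7 (0.16) lies at its end. The intervals of Grm3, Grm4, Grm5 and Grm8 include 0.

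Summed by receptor group, the balance between groups II and I differed more than either of the other balances. Group I, here Grm5 alone, stood at 44.7 ± 0.432 FPKM in WT against 45.5 ± 0.542 FPKM in the KO-labelled animals (SD, n = 2 each). Group II stood at 26.0 ± 1.13 and 30.6 ± 2.63 FPKM, and group III at 18.4 ± 0.876 and 20.3 ± 0.947 FPKM. The group II difference lay mostly in Grm2 (means 14.6 and 18.6 FPKM, WT first) and little in Grm3 (11.4 and 12.05 FPKM). The group II to group I balance is therefore largely that of Grm2 to Grm5. As a share of the 6 genes, group I made up 50.2% and 50.1% in the WT animals and 46.2% and 48.2% in the KO-labelled animals. Group II made up 29.9% and 28.4% in WT and 32.7% and 30.8% in KO. Group III ran from 19.9% to 21.5% with overlapping groups.

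The group II to group I ratio of summed FPKM was 0.596 and 0.568 in the WT animals and 0.708 and 0.638 in the KO-labelled animals. The groups did not overlap, and the log2 ratio differed by 0.21. The group III to group I ratio was 0.396 and 0.429 in WT and 0.457 and 0.435 in KO, a log2 difference of 0.11 without overlap. For group III to group II the groups overlapped, at 0.665 and 0.756 against 0.646 and 0.683, with a log2 difference of -0.09. Exact two-sided permutation tests gave p = 0.333, 0.333 and 0.667, and p = 0.333 is the smallest value this design allows. This exact test cannot reach 0.05 with 4 animals.

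**Figure D3:**
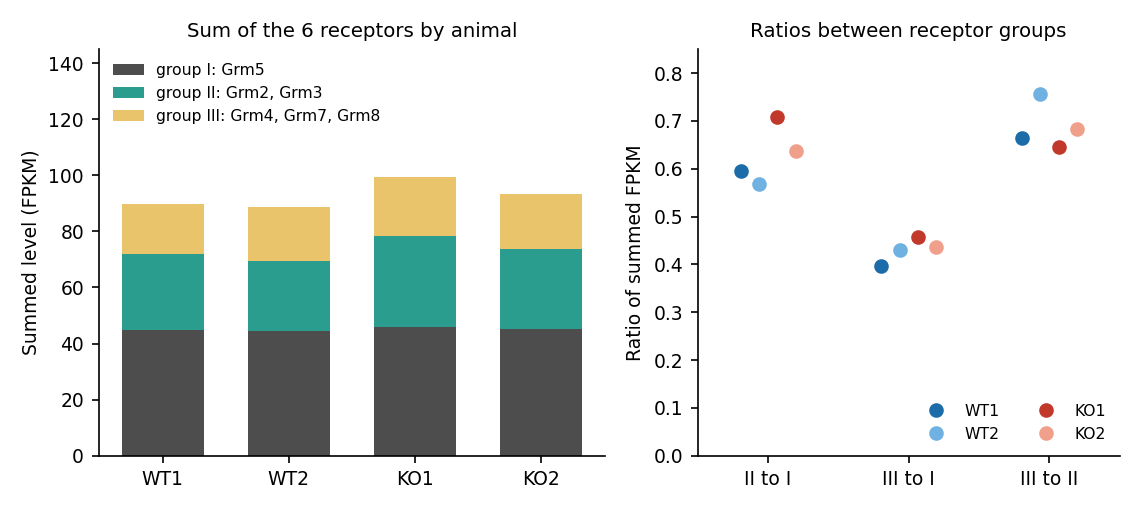
Left, summed FPKM of the 6 receptor genes in each animal (y axis, from 0), stacked by receptor group. Right, ratio of summed FPKM between receptor groups (y axis, from 0), 1 point per animal. Group I is about level across animals at 44.4 to 45.9 FPKM, and the group II to group I ratio is higher in both KO-labelled animals.

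Across the 8 libraries the members did not follow 1 pattern. Pearson's r on log2(FPKM + 1) was highest between Grm3 and Grm5 (0.93), Grm4 and Grm5 (0.89) and Grm3 and Grm4 (0.88). It was 0.77 between the group II genes Grm2 and Grm3, and 0.60 between the group III genes Grm4 and Grm7. Grm8 had a negative r with each of the other 5 genes, from -0.15 to -0.52. These are descriptions over 8 libraries from 4 animals, whose technical pairs share RNA and whose groups share labels.

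The genes most like each receptor were sought among 9731 or 9732 tested genes with a mean of at least 5 FPKM. For Grm2 the first was Diras2 (r = 0.995), which encodes a small GTPase. As many as 463 genes had an r over 0.9 with Grm2, so the named gene is 1 of many. For Grm3 they included the postsynaptic scaffold gene Lrrc7 (0.972) and Retreg3 (0.953). For Grm4 they were Jakmip2 (0.989), the transcriptional repressor gene Scrt1 (0.983) and Eid1 (0.981). For Grm5 they were Ola1 (0.989), Pde4dip (0.976) and the actin regulator gene Wasf3 (0.960). Grm7 was most like Cops9 (0.951), Psme3 (0.950) and Pcdhac2 (0.941), and only 13 genes had an r over 0.9 with it. Grm8 was most like Calu (0.975), Kat14 (0.954) and Zmym4 (0.947). These r are over the same 8 libraries of 4 animals.

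Of the signalling partners of the receptors, limma called 0 genes in any of 5 lists, the class C receptors below included. At an unadjusted p under 0.05 there were 22 of 89 tested, 17 higher and 5 lower, where 15.5% of all genes reached that level. The 17 include Ptk2b itself, which is listed downstream of group I receptors. Of the receptor-binding proteins and scaffolds, 17 of 18 listed genes were tested, 11 had a higher mean in the KO-labelled animals, and the median log2 difference was 0.08. The long Homer proteins tie group I receptors to internal calcium stores. Homer1 stood at 28.3 ± 2.08 FPKM in WT against 29.9 ± 2.87 FPKM in the KO-labelled animals, and Homer2 at 13.3 ± 1.35 and 15.1 ± 1.26 FPKM (SD, n = 2 each). The scaffold gene Shank1, at 59.4 ± 0.278 and 67.2 ± 1.07 FPKM, had the smallest p of this list (limma adjusted p = 0.144).

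G protein subunits and regulators of G protein signalling (21 tested) had a median log2 difference of 0.07, with 16 higher. Rgs4, which speeds the turn-off of Gq and Gi signals, stood at 40.1 ± 2.79 FPKM in WT against 49.1 ± 1.21 FPKM in the KO-labelled animals (adjusted p = 0.144). Gnaq, an alpha subunit that group I receptors use, stood at 44.9 ± 0.628 and 49.6 ± 1.88 FPKM. The alpha subunit gene Gna11 of the same list was about level, at 37.0 ± 0.796 and 37.2 ± 0.416 FPKM. Gnai2, an alpha subunit for group II and III receptors, was lower in the KO-labelled animals, at 86.8 ± 0.153 and 79.3 ± 1.76 FPKM (WT first, limma adjusted p = 0.228).

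Genes downstream of group I receptors (24 tested) had a median log2 difference of 0.09, with 18 higher, Ptk2b among them. Of the phospholipase C genes, Plcb1 stood at 32.0 ± 1.28 FPKM in WT against 37.1 ± 1.55 FPKM in the KO-labelled animals, and Plcb4 at 8.65 ± 0.230 and 6.83 ± 0.0703 FPKM (limma adjusted p = 0.196 and 0.126). Arc, an immediate early gene whose product drives AMPA receptor endocytosis, stood at 55.3 ± 3.72 and 87.0 ± 26.5 FPKM, the widest difference of this list at 0.61 on the log2 scale (SE 0.21, limma adjusted p = 0.274). Fyn, a Src family kinase, stood at 53.0 ± 0.236 and 60.9 ± 2.20 FPKM (adjusted p = 0.150). Genes downstream of group II and III receptors (21 tested) had a median of 0.10, with 17 higher. Among them the adenylyl cyclase gene Adcy1, whose product calcium activates, stood at 80.3 ± 11.3 and 100.9 ± 11.8 FPKM, and Adcy6, whose product calcium inhibits, at 10.6 ± 0.276 and 8.47 ± 0.719 FPKM (limma adjusted p = 0.307 and 0.188). The median over all genes tested was -0.02.

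Other receptors of the same structural class C, such as the GABA-B receptors, were split in direction. Of 14 listed genes 6 were tested, 3 higher and 3 lower, with a median log2 difference of -0.05. The GABA-B subunit gene Gabbr2 stood at 53.0 ± 2.32 FPKM in WT against 59.2 ± 0.418 FPKM in the KO-labelled animals, and the orphan receptor gene Gpr158 at 17.3 ± 0.485 and 19.7 ± 0.508 FPKM. Gprc5b stood at 61.4 ± 3.03 and 54.4 ± 1.02 FPKM, and Gprc5c at 2.67 ± 0.390 and 1.07 ± 0.202 FPKM (limma adjusted p = 0.229 and 0.1).

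Markers of the cell types that carry these receptors were set beside them. Dentate granule cell markers, for Grm2, had 4 of 10 genes higher and a median log2 difference of -0.03. Their summed level was 175 to 193 FPKM in WT and 180 to 195 FPKM in the KO-labelled animals, and the ranges overlapped. Astrocyte markers, for Grm3, had 6 of 10 higher and a median of 0.03, with sums of 1059 to 1098 and 1106 to 1202 FPKM that did not overlap. Sums of CA2 and CA3 markers (332 to 371 and 380 to 382 FPKM) did not overlap either, with the KO-labelled animals higher. The same held for interneuron markers (920 to 943 and 967 to 1024 FPKM). Within the interneuron list the widest difference in FPKM was that of Cck (means 361 and 420 FPKM, WT first). Gad1 (99.0 and 96.7), Gad2 (29.9 and 26.8), Slc32a1 (37.9 and 31.5) and Sst (291 and 284) were lower in the KO-labelled animals. At an unadjusted limma p under 0.05, Cck, Npy (68.0 and 83.4) and Vip (6.83 and 9.42) were higher and Slc32a1 was lower. The astrocyte sum was carried mainly by Aldoc and Slc1a2, while 4 of 10 genes were lower, Gja1 among them (63.1 and 58.3). Pcp4 was the largest part of the CA2 and CA3 sum, at 214.6 and 190.3 FPKM in WT1 and WT2 against 215.4 and 214.3 in KO1 and KO2. In that list 2 of 9 genes were lower. None of these sums showed a difference shared by its whole list. CA1 markers had 7 of 8 higher (median 0.06), CA2 and CA3 markers 7 of 9 (0.11), interneuron markers 6 of 10 (0.08), oligodendrocyte lineage markers 9 of 10 (0.08), and microglia markers 6 of 8 (0.11). Over all genes tested, 42.0% had a higher mean log2 level in the KO-labelled animals. Limma called 0 genes in each of these 7 lists, with 11 of 65 at an unadjusted p under 0.05, 8 higher and 3 lower, against 15.5% of all genes.

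Markers of tissue that can adhere to a hippocampal dissection were counted in the same way. Of the choroid plexus genes 0 of 18 passed over all genes in limma and 18 reached an unadjusted p under 0.05, all lower, with a median log2 difference of -2.30. Of 5 blood genes all were lower and 2 passed, Hba-a1 and Hba-a2, with summed levels of 287 to 317 FPKM in WT and 149 to 158 FPKM in the KO-labelled animals. Striatal markers, from a region that expresses Grm4 and Grm5, summed to 91.7 to 94.3 FPKM in WT and 61.9 to 62.0 FPKM in the KO-labelled animals. In this striatal list 5 of 9 were lower and 1 passed, Ppp1r1b, whose product is a phosphatase inhibitor regulated by dopamine (limma adjusted p = 0.0372). Thalamic and habenular markers had 4 of 8 higher (sums 70.2 to 71.2 and 55.1 to 68.4 FPKM), and neocortical markers 6 of 8 higher (sums 84.8 to 89.2 and 93.0 to 102 FPKM). The part of any of these tissues in the receptor values was not tested.

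**Figure D4:**
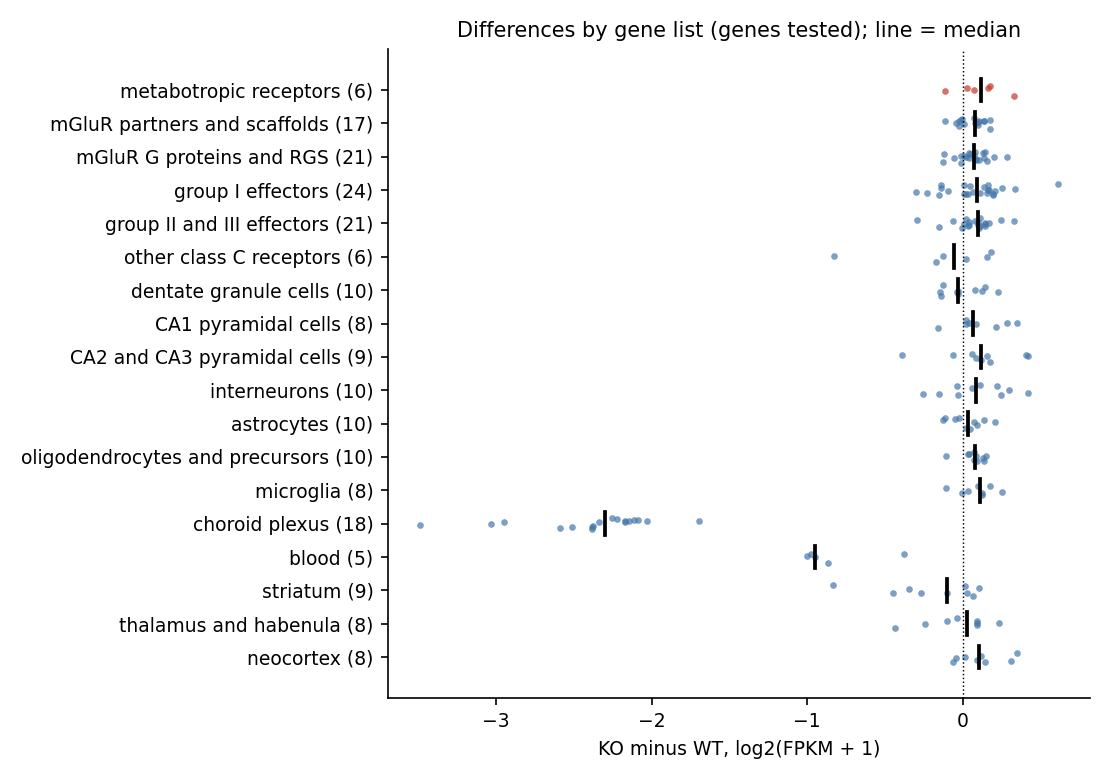
Difference between the KO-labelled animals and the WT animals on the log2(FPKM + 1) scale (x axis) for the tested genes of each list (points, number tested in parentheses; black line, list median). The receptor row has a median of 0.12, and most other lists have medians between -0.10 and 0.11, while choroid plexus (median -2.30) and blood (median -0.95) lie far to the lower side.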

How the data were processed

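Gene tables of 8 libraries were used, 1 per library. The authors deposited FPKM, its confidence limits and a status for every gene, per the file headers. Genome mm10 and the aligners Bowtie (version 1) and HISAT appear in the submitters' processing notes with no role. Which program computed FPKM, and whether libraries were scaled to each other, is not given in the sources used here. Values with a status other than OK (12 in all, none of a member) were treated as missing, and the 53 rows that repeat a gene identifier were summed. Gene coordinates are those of the tables, counted from 1, and equal GENCODE M21 for all 6 members.

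No counts were used. The width of the deposited limits would imply 11.3 to 14.1 M fragments per library, a rough figure, since for genes under 30 implied fragments 29.8% to 32.4% came out whole within 0.05.

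Technical replicates were averaged per animal. The test was limma 3.58.1 (R 4.3.3) on log2(FPKM + 1) (trended variance, KO minus WT, genes of at least 0.5 FPKM in 2 animals, Benjamini-Hochberg adjustment, threshold 0.05). The pseudocount understates changes of low genes. Adjusted p-values come from limma unless an exact permutation test is named. Alternatives are given at the end.

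The members and the 17 lists were chosen with earlier results of these data known. Named genes are the members, the 3 genes most like each, listed genes past the threshold and, of each list, up to 4 with the smallest p, of which not all are printed. Homer1, Homer2, Arc, Gna11, Gad1, Gad2, Sst, Pcp4, Wfs1 and Ttr were named outside that rule, with their values known. Other genes of the receptor family, and some genes that the rule names, are not reported here. Figures were drawn with matplotlib 3.10.9.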

Additional observations from a re-analysis of the deposited data

How the results depend on the processing

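Each member's difference was recomputed under 13 alternatives, and no member passed the threshold of 0.05 under any of them. The direction of Grm2, Grm3, Grm4, Grm5 and Grm7 was the same under all 13, and with 1 animal left out Grm2 ranged from 0.23 to 0.43 on the log2 scale. Grm8 was the exception, at 0.0177 without WT2 and -0.25 without WT1. Changing the filter on low values or adding the replicate block leaves every estimate as it was. Those alternatives bear only on p-values and could not alter a direction. Over all alternatives the adjusted p of Grm2 ran from 0.0909 to 0.628. The 3 ratios between receptor groups kept their direction under 10 alternatives, from 0.13 to 0.28 for group II to group I, 0.04 to 0.19 for group III to group I and -0.19 to -0.0016 for group III to group II. The animals of the 2 groups overlapped in group III to group I with the first technical replicates alone (0.04, exact permutation p = 0.667). The replicate block does not enter these ratios, and median-of-ratios scaling all but cancels in them, so neither could alter their direction.

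The number of genes called by limma, 9 here, was less stable: 0 with no filter on low values (3741 at an unadjusted p under 0.05), 14 with a pseudocount of 0.1, 19 and 35 with the first or second technical replicate alone, and 0 to 224 with 1 animal left out. Dropping the first library of KO1, an alternative added after seeing the data, gave 20. With the animal number as a replicate block it was 184. Nothing in the labels ties equal numbers across groups, the deviations of same-numbered animals correlated at 0.11 over 16667 genes, and the block changed no member's call (Grm2 adjusted p = 0.0909). Where leaving out an animal left 1 in its group, that animal was taken to have the spread of the other group. The cause of these shifts was not tested.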
